A study of Sus scrofa with 4 samples.

Results

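The genes described here encode the subunits of the proteasome, with the activators that dock on it and a few of its assembly factors, in heart tissue of minipigs after MI. They were taken as every probe set whose single gene symbol on the array platform starts with PSMA, PSMB, PSMC, PSMD or PSME. This gave 42 of the 24123 probe sets and 37 of the 6765 genes with a symbol. The probe set with the highest mean signal stood for its gene, and 3 genes (PSMC2, PSMD1 and PSMD11) had 5 further probe sets, which served as a check. PSMB9, PSMC4 and PSMD7, together with PSMA8, PSMB11, PSMD9 and PSMC3IP, were not analysed here, since no probe set carries their symbol alone.

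Female Chinese Bama minipigs a few months old underwent permanent ligation of the left circumflex coronary artery. The myoblast transplantation group then received intramyocardial injections of human skeletal myoblasts in DMEM, a culture medium, together with cyclosporin A, an immunosuppressant. According to the methods, the control treatment group received DMEM and the same cyclosporin A, whereas the sample labels describe control tissue as untreated. Control tissue was taken as the control treatment group. If the arrays are instead of MI tissue without injection, the groups also differ in the injection and in cyclosporin A. The border zone and the infarct zone of each group were measured on 1 Affymetrix Porcine Genome Array each, 4 arrays in all, and the number of minipigs behind an array and the week of sampling are not given in the sources used here. The grafted cells were human and the probes are for pig transcripts, and the part of human RNA in the signals was not tested. No condition was replicated, so that no spread between minipigs can be given and each difference below is one between single arrays. Values are MAS5 signals in linear units, scaled by the authors to a common mean of each array, and differences are on the log2 scale unless a ratio is named.

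The proteasome degrades proteins tagged with ubiquitin. Its barrel, the 20S core, is built of rings of alpha subunits, which gate the entrance, and of beta subunits, of which PSMB5, PSMB6 and PSMB7 cut the substrate. The 19S particle on its ends binds ubiquitin chains, removes them and unfolds the protein with a ring of ATPases. Interferon-gamma induces PSMB8, PSMB9 and PSMB10, which take the places of PSMB5, PSMB6 and PSMB7 in newly made cores (the immunoproteasome), and the PA28 activator made of PSME1 and PSME2, and these forms favour peptides for MHC class I molecules. In the heart, the proteasome is known for the turnover of sarcomere proteins and for its impairment in ischemia.

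Proteasome transcripts were abundant on every array. All 37 member genes lay above the array median of 137 to 142 units on all 4 arrays, with signals from 438 (PSMB10 with myoblasts in the border zone) to 10591 (PSMA7 in control infarct tissue). The median member stood at the 92.8th to 94.2nd percentile of its array. These percentiles place the subunits among the brighter part of the array, where differences between arrays are small: of the 6209 probe sets in the same range of mean signal, 2.69% differed at least 2-fold between myoblast and control arrays in the mean over both zones, against 15.5% of all probe sets. The summed signal of the 37 genes was 85185 and 93519 with myoblasts (border and infarct zone) and 96101 and 100375 in controls. Both sums with myoblasts were below both control sums.

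On its chosen probe set, no proteasome gene differed 2-fold between myoblast and control tissue in either zone, and none reached 1.5-fold. The same held for the mean over zones, in which 30.1% of all probe sets and 10.4% of those in the signal range differed 1.5-fold. Among the further probe sets, the second PSMC2 one passed 1.5-fold in the border zone (a ratio of 0.602) and in the mean over zones (0.662). The dimmest PSMD11 one, below the array medians, passed 2-fold in the infarct zone (0.448) and 1.5-fold in the mean over zones (0.611). In the border zone, 20.4% of all probe sets (3.72% of those in the signal range of the members) differed 2-fold and 36.3% (14.2%) differed 1.5-fold, and the values in the infarct zone were 20.1% (3.30%) and 35.7% (12.4%). Small differences were mostly in the direction of lower signals with myoblasts. The ratio of myoblast over control was below 1 in both zones for 23 of the 37 genes and above 1 in both for 4, whereas 29.7% of all probe sets (33.8% in the signal range) were lower and 30.7% (35.9%) higher in both zones. The median log2 difference of the members was -0.18 (border zone), -0.12 (infarct zone) and -0.15 (mean over zones, a ratio of 0.902), beside medians of 0.0018, 0.010 and 0.012 over all probe sets. For 19 members both myoblast arrays were below both control arrays and for 3 both were above. Over all probe sets this held for 22.1% and 22.8%, and in the signal range for 26.8% and 28.2%. The members also lay close together, with an SD between genes of 0.17 in the mean over zones against 0.40 in the signal range. In limma, with treatment and zone in the model, the only error was how far the treatment difference varied between zones, pooled in part over all probe sets. Of the 37 genes, 0 passed an adjusted p of 0.05, and 0 had an unadjusted p under 0.05 (8.81% of all probe sets did). With a mean-variance trend, added after seeing the data, the numbers were 0 and 7 (3.27% and 16.3% of all probe sets), and the lowest adjusted p of a member was 0.16.

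**Figure D1:**
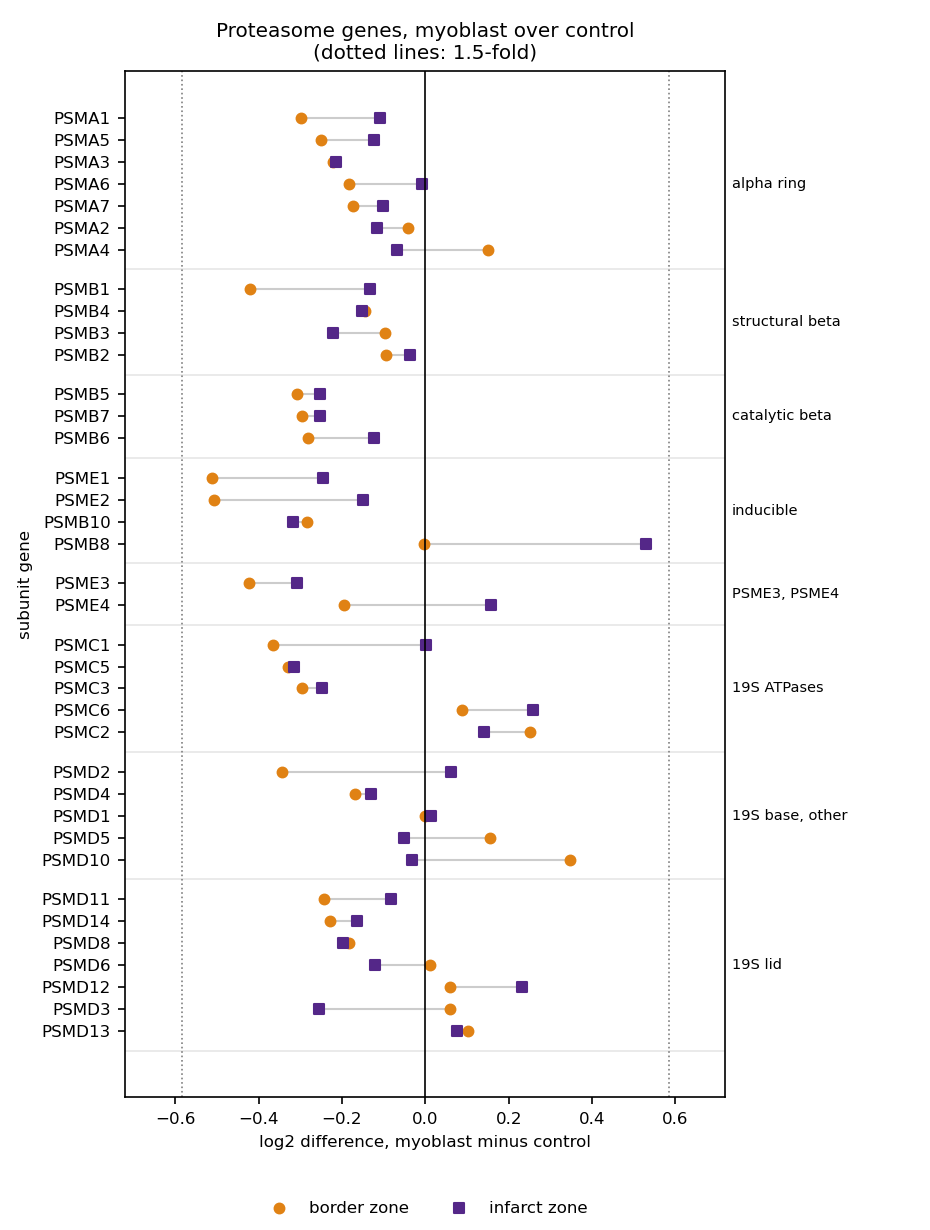
Log2 difference of myoblast minus control (x axis) for each proteasome gene (y axis, grouped by role), in the border zone (circles) and the infarct zone (squares), 1 array per condition. On their chosen probe sets, all 37 genes lie within the dotted lines at 1.5-fold, and 23 have both symbols left of 0.

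The constitutive 20S core was the most uniform part. Of its 14 genes measured, 13 were lower with myoblasts in both zones and the remaining gene, PSMA4, had ratios of 1.11 and 0.953. Among the catalytic subunits, PSMB5, the chymotrypsin-like subunit, gave 2887 (border) and 3001 (infarct zone) with myoblasts and 3573 and 3575 in controls, ratios of 0.808 and 0.839. PSMB7, the trypsin-like subunit, had 2975 and 3276 against 3649 and 3906, ratios of 0.815 and 0.839. PSMB6, the caspase-like subunit, had 2867 and 2963 against 3487 and 3228, ratios of 0.822 and 0.918. For all these subunits, the higher myoblast array was below the lower control array, and their log2 differences in the border zone lay between -0.31 and -0.28. The structural beta subunits PSMB1, PSMB2, PSMB3 and PSMB4 had border zone ratios of 0.746 to 0.937 and infarct zone ratios of 0.857 to 0.976. PSMB1 was the lowest of them in the border zone but not in the infarct zone, with 4002 and 4718 against 5361 and 5169. Of the alpha ring, 7 genes were measured and 6 were lower in both zones, with PSMA3 at 4608 and 4867 against 5370 and 5647 and PSMA1 at 2209 and 2545 against 2715 and 2745. PSMA7, the brightest member, had ratios of 0.886 and 0.931, and its mean log2 difference of -0.14 became -0.03 with quantile normalization.

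The 19S genes were mixed. Of 17 genes, which include the assembly chaperones PSMD5 and PSMD10, 6 were lower in both zones, 4 were higher in both and 7 had ratios on different sides of 1, with a median log2 difference of -0.10 in the mean over zones beside -0.17 for the 14 constitutive core genes. Among the ATPases, which unfold and thread substrates, PSMC5 had 2230 and 2421 against 2803 and 3011, ratios of 0.795 and 0.804. PSMC3 had ratios of 0.815 and 0.842, and both myoblast arrays were below both control arrays for each of them. PSMC6 went the other way, with 3135 and 3258 against 2950 and 2722, ratios of 1.06 and 1.2, and PSMC1 had ratios of 0.776 and 1.0. The direction of PSMC2 depended on the probe set. The brightest had 2071 and 2169 against 1740 and 1969, ratios of 1.19 and 1.10, whereas another of nearly the same brightness had 1438 and 1719 against 2390 and 2363, ratios of 0.602 and 0.728, in the border zone a wider difference than that of any of the 37 genes on its chosen probe set. A dimmer PSMC2 probe set had ratios of 1.11 and 1.01.

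The other base genes were near control on average. PSMD1, a scaffold of the base, had ratios of 0.999 and 1.01 on its brighter probe set and 0.810 and 0.869 on its other, and PSMD2, also a scaffold, had 0.788 and 1.04. PSMD4, a receptor for ubiquitin chains, had 0.890 and 0.914. PSMD10 and PSMD5 are chaperones of base assembly rather than subunits of the finished particle. PSMD10 (gankyrin) had signals of 558 and 467 against 439 and 477, ratios of 1.27 and 0.979, so that the border zone array with myoblasts stood above the other arrays, and PSMD5 had ratios of 1.11 and 0.965. In the lid, PSMD14, the enzyme that cuts ubiquitin chains from the substrate, had 2100 and 2407 against 2463 and 2698, ratios of 0.853 and 0.892. PSMD8 had 0.881 and 0.872 and PSMD11 had 0.845 and 0.944. PSMD12 (1.04 and 1.17) and PSMD13 (1.07 and 1.05) were higher in both zones, and PSMD3 (1.04 and 0.838) and PSMD6 (1.01 and 0.920) were lower in the infarct zone alone. The second PSMD11 probe set, at 231 to 313 units, had ratios of 1.36 and 1.06, opposite to the brightest, and the dimmest one, below the array medians, had 0.833 and 0.448.

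The inducible members differed in direction. PSMB8, which replaces PSMB5, had signals of 695 and 719 with myoblasts and 696 and 498 in controls (border and infarct zone), ratios of 0.998 and 1.44. A single array stood apart: control infarct tissue was low, and the other arrays lay within 695 to 719. PSMB10, which replaces PSMB7, had 438 and 491 with myoblasts against 533 and 612, ratios of 0.821 and 0.802, and both myoblast arrays were below both control arrays. PSME1 and PSME2 had the lowest ratios of all 37 genes in the border zone. PSME1 had signals of 1996 and 2274 against 2844 and 2695, ratios of 0.702 and 0.844, and PSME2 had 1157 and 1198 against 1643 and 1329, ratios of 0.704 and 0.901. Neither of them overlapped between myoblast and control arrays. PSME3, which forms a nuclear activator and is not known as an interferon target, was also low, with 453 and 526 against 607 and 650.2 and ratios of 0.746 and 0.808. PSME4, the PA200 activator, had 865 and 1178 against 991 and 1057, so that the myoblast arrays lay on either side of the controls. In the mean over zones, PSME1, PSME3 and PSME2 were the 3 lowest and PSMB8 the highest of the 37 genes.

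**Figure D2:**
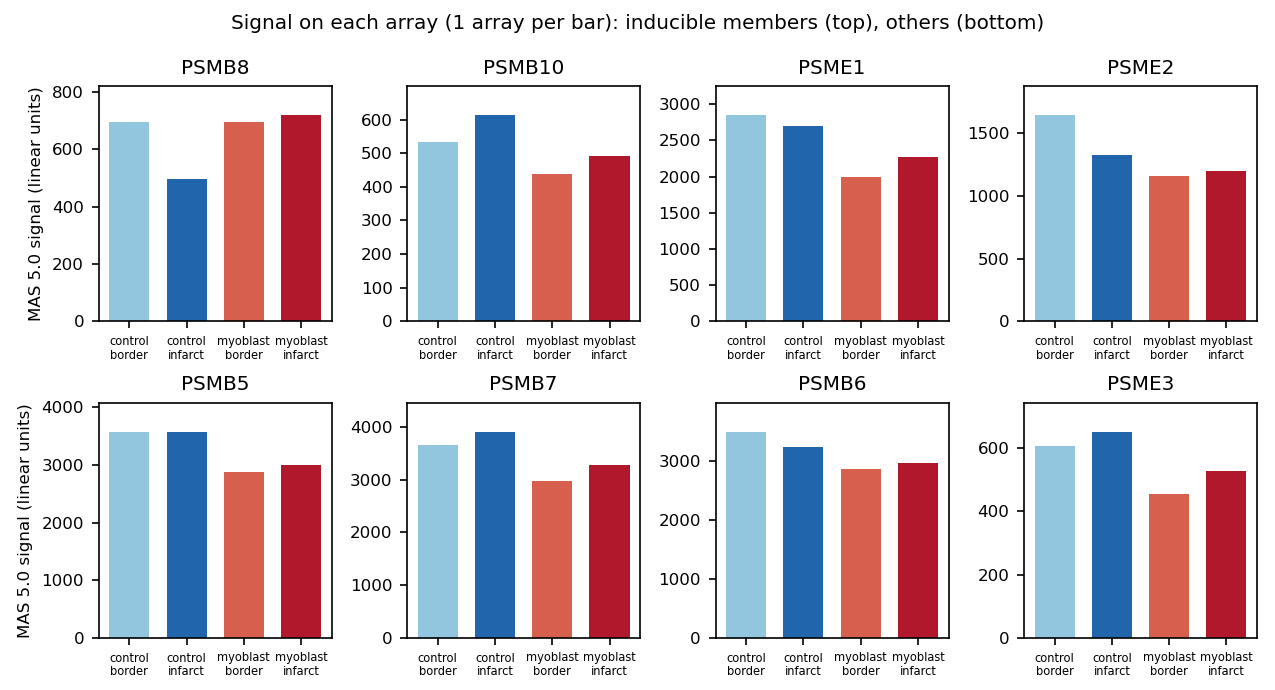
MAS5 signal (y axis, linear units from 0, separate scale per gene) on each of the 4 arrays (x axis, 1 bar per array) for the inducible members PSMB8, PSMB10, PSME1 and PSME2 and for PSMB5, PSMB7, PSMB6 and PSME3. PSMB8 is low on the control infarct array at 498, and for the other 7 genes both control bars are above both myoblast bars. This held for 19 of all 37 members, 22.1% of all probe sets and 26.8% of those in the signal range. PSME4, for which it did not hold, is not drawn.

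Set against the other 33 members, the 4 inducible genes had a median log2 difference of -0.40 beside -0.18 (border zone) and of -0.20 beside -0.12 (infarct zone). The inducible median minus that of the others was -0.21 and -0.08, and -0.17 in the mean over zones. Without PSME1 and PSME2, a setting added after seeing the data, it was 0.04, 0.22 and 0.13, the opposite direction, although PSMB10 had the lowest infarct zone value of all members. With the catalytic subunits alone, PSMB8 and PSMB10 against PSMB5, PSMB6 and PSMB7, the difference was 0.15 and 0.36 in the same zones. Within the catalytic pairs, the log2 difference of PSMB8 was above that of PSMB5 by 0.30 and 0.78 (a ratio of the ratios of 1.24 and 1.72). PSMB10 and PSMB7 had nearly equal differences, with PSMB10 minus PSMB7 at 0.01 and -0.06, and the first of these became -0.05 with quantile normalization. The inducible partner of PSMB6, PSMB9, was not analysed here. Between-array differences are compared in these contrasts, since signals of different probe sets are not on 1 scale.

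Between zones the members varied less than between treatments, with an SD over the 37 genes of 0.15 (control) and 0.14 (myoblast) beside 0.21 (border zone) and 0.18 (infarct zone). The probe sets of the same signal range did so too, with 0.22 and 0.38 beside 0.45 in each zone. In controls, 26 of 37 members had a higher signal in the infarct than in the border zone (50.4% of all probe sets and 49.2% in the signal range), with a median log2 difference of 0.09 and none at 2-fold or 1.5-fold (17.2% and 28.5% of all probe sets, 0.225% and 1.88% in the signal range). PSMB8 (696 to 498, a ratio of 0.716) and PSME2 (1643 to 1329, a ratio of 0.809) were the lowest in the infarct zone, while PSMB10 went the opposite way (533 to 612). PSMB3 had the highest ratio, 1.27 (864 to 1096). After myoblast transplantation, 32 of 37 members were higher in the infarct zone (52.8% of all probe sets and 52.4% in the signal range), with a median of 0.12 and again none at 2-fold or 1.5-fold (18.0% and 32.3% of all probe sets, 2.16% and 8.46% in the signal range). PSME4 (865 to 1178, a ratio of 1.36) and PSMC1 (1147 to 1467, a ratio of 1.28) were the highest. PSMD10 (558 to 467, a ratio of 0.837) was the lowest, followed by PSMD3 (721.5 to 673, a ratio of 0.933). The 4 inducible genes had ratios of 1.03 to 1.14 there, within the range of the other members.

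**Figure D3:**
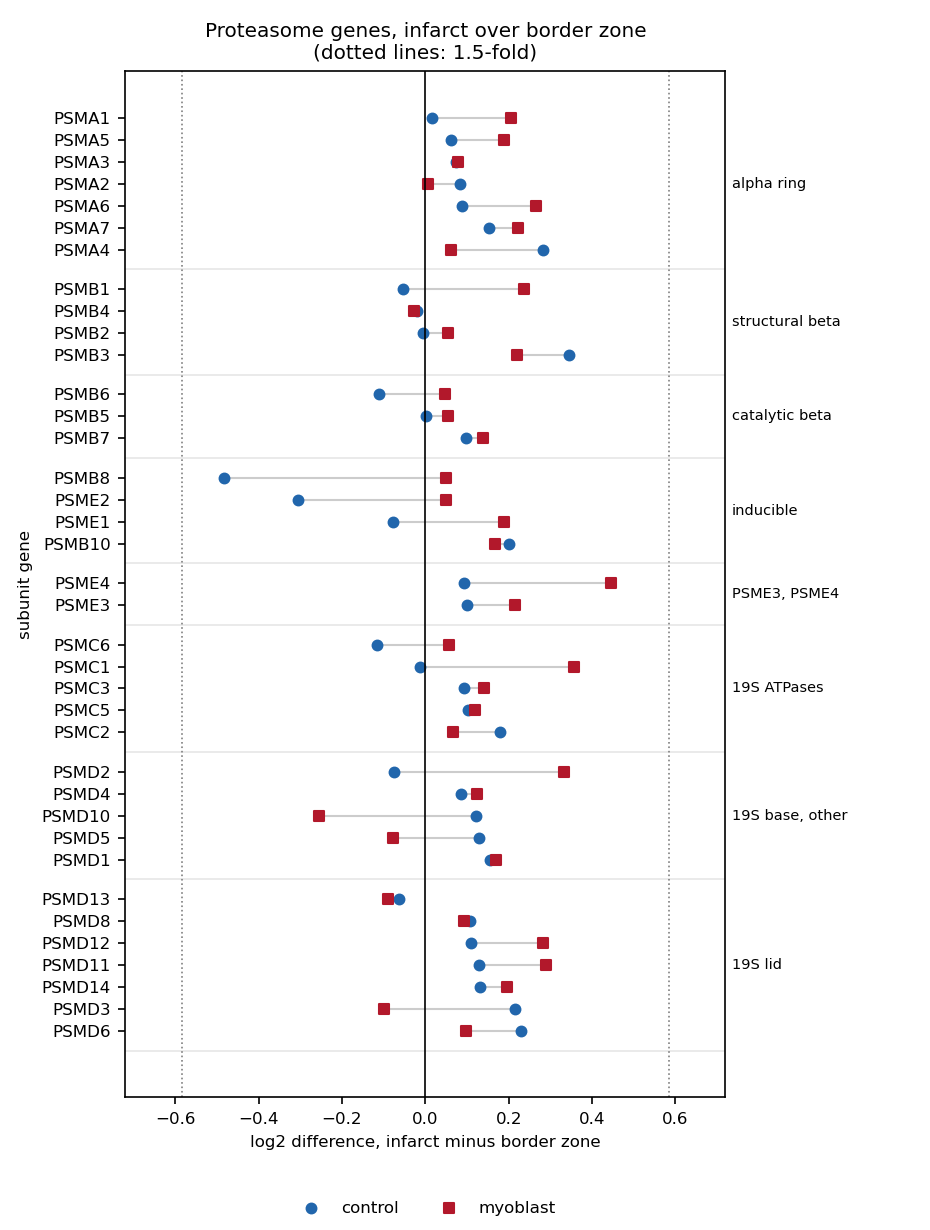
Log2 difference of infarct minus border zone (x axis) for each proteasome gene (y axis, grouped by role) in control (circles) and myoblast tissue (squares), 1 array per condition. PSMB8 has the lowest control value, -0.48, and 32 of 37 squares lie right of 0.

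Across the 37 genes, the differences between myoblast and control arrays of the border zone and of the infarct zone, which share no array, had a Pearson r of 0.48 and a Spearman rho of 0.51. In the signal range of the members r was 0.60 over 6209 probe sets. Genes on the same arrays are not independent replicates, and the zones may come from the same minipigs. The zone differences of control and myoblast tissue had an r of 0.08 across the members.

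**Figure D4:**
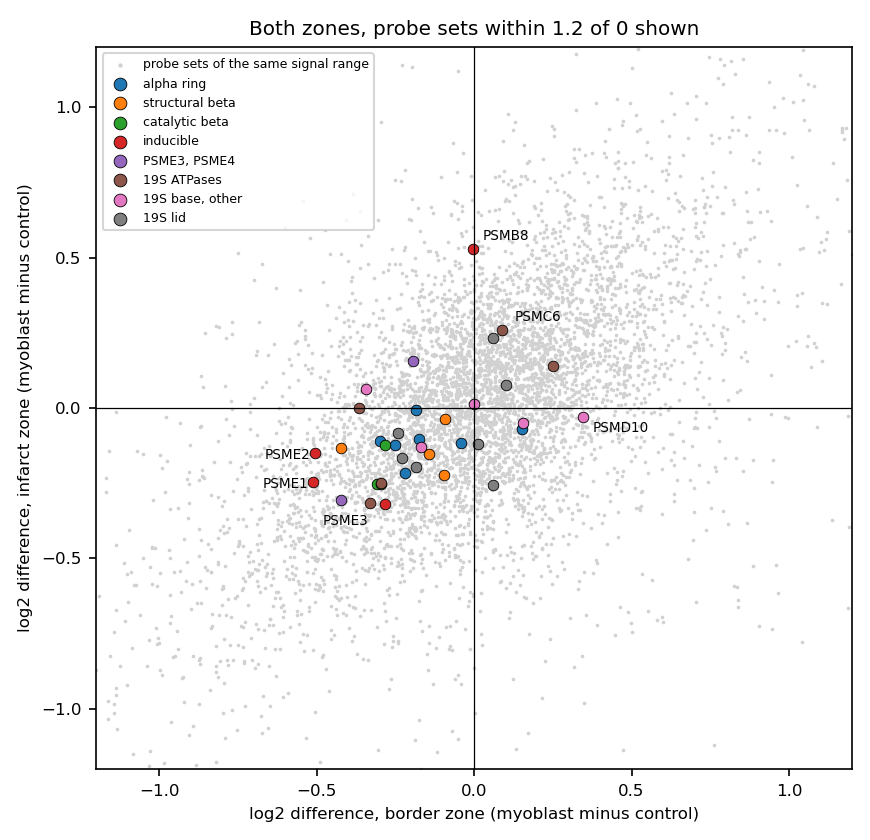
Log2 difference of myoblast minus control in the border zone (x axis) against the infarct zone (y axis) for the 37 proteasome genes, coloured by role, over the probe sets in the same range of mean signal (grey, those within 1.2 of 0 shown). Of the members, 23 lie at the lower left of the origin and 4 at the upper right, and PSMB8 lies alone at 0.53 on the y axis.

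Genes that act on the same pathway were described from lists. Of 6 assembly and regulatory genes measured, 3 were lower in both zones with myoblasts and 1 was higher (29.7% and 30.7% of all probe sets). None was at 2-fold in the mean over zones (15.5% of all probe sets). The assembly chaperone PSMG1 had signals of 1234 and 1208 against 1469 and 1491, ratios of 0.841 and 0.810, and SEM1, a small lid subunit outside the PSM names, had ratios of 0.858 and 0.796. Thioredoxin-like TXNL1, which binds the 19S particle, had 1.05 and 1.22, and PAAF1, a chaperone of the base, had 0.962 and 1.27, each on its brightest probe set. The dimmer PAAF1 probe sets, below the array medians, had log2 differences of -1.27 and -0.16 and of 0.95 and -1.31. The dimmer TXNL1 ones had 0.09 and 0.05 and, for the dimmest, -0.53 and -0.06. Of 7 ubiquitin and shuttle genes, 4 were lower in both zones and 1 was higher, beside the same shares of all probe sets, and again none was at 2-fold. The polyubiquitin gene UBB had ratios of 0.916 and 0.754 and the chaperone-linked ligase STUB1 had 0.822 and 0.841. SQSTM1, the autophagy receptor for ubiquitin, had signals of 5785 and 6233 against 4936 and 5444, and the muscle ligase FBXO32 had 0.925 and 1.09. NFE2L1, a factor that drives proteasome genes, and POMP, a core assembly factor, were not analysed here.

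Genes that control the inducible subunits were mostly higher with myoblasts, unlike PSMB10, PSME1 and PSME2. Of 11 interferon control genes measured, 7 were higher in both zones and 1 was lower (30.7% and 29.7% of all probe sets), with a median log2 difference of 0.30 in the mean over zones. Only 1 was at least 2-fold higher there (15.5% of all probe sets differed 2-fold either way). That gene, SOCS1, rests on a signal of 8.34 on the control infarct array beside 111 to 137 on the others, all below the array medians. IFNG itself gave 5.24 to 14.9 units on the 4 arrays, far below the array medians, and no order can be read from it. The transcription factors IRF1, IRF8 and IRF9, which act on interferon-induced genes, stood above the array medians. IRF1 had signals of 455 and 368 against 368 and 295, ratios of 1.24 and 1.25, IRF8 had 420.3 and 525 against 238 and 284, ratios of 1.77 and 1.85, and IRF9 had 517 and 342 against 345 and 248, ratios of 1.5 and 1.38. The kinase JAK2 had 0.878 and 0.759, although a dimmer JAK2 probe set had 1.13 and 0.999, and STAT2 had 507 and 412 against 439.6 and 442.

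Of 11 genes for peptide supply to MHC class I, 5 were higher in both zones and 3 were lower (30.7% and 29.7% of all probe sets), with a median of 0.03. TAP1, the peptide transporter, had signals of 668 and 636 against 507 and 417 on its brightest probe set, ratios of 1.32 and 1.52, and neither myoblast array overlapped the controls there. In the pig reference assembly Sscrofa11.1, TAP1 is the next protein-coding gene to PSMB8, and IRF9 is the next one to PSME2. PSMB8 and the brightest TAP1 probe set were both lowest on the control infarct array, whereas IRF9 had higher and PSME2 lower signals with myoblasts. The dimmer TAP1 probe sets, below the array medians, were lowest on the control border array (41.1) and on the myoblast border array (8.18). The dimmest was highest on the control infarct array (96.2). The class I genes SLA-2 (1.57 and 1.71) and SLA-6 (1.81 and 1.35) were higher, SLA-3 had 135 and 194 against 831 and 914, ratios of 0.162 and 0.212, and B2M, their light chain, had 0.978 and 0.927 on its brightest probe set. SLA genes are close copies that differ between minipigs, so that their probe sets cannot be assigned to 1 gene with certainty. TAP2, the partner of TAP1, was not analysed here.

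**Figure D5:**
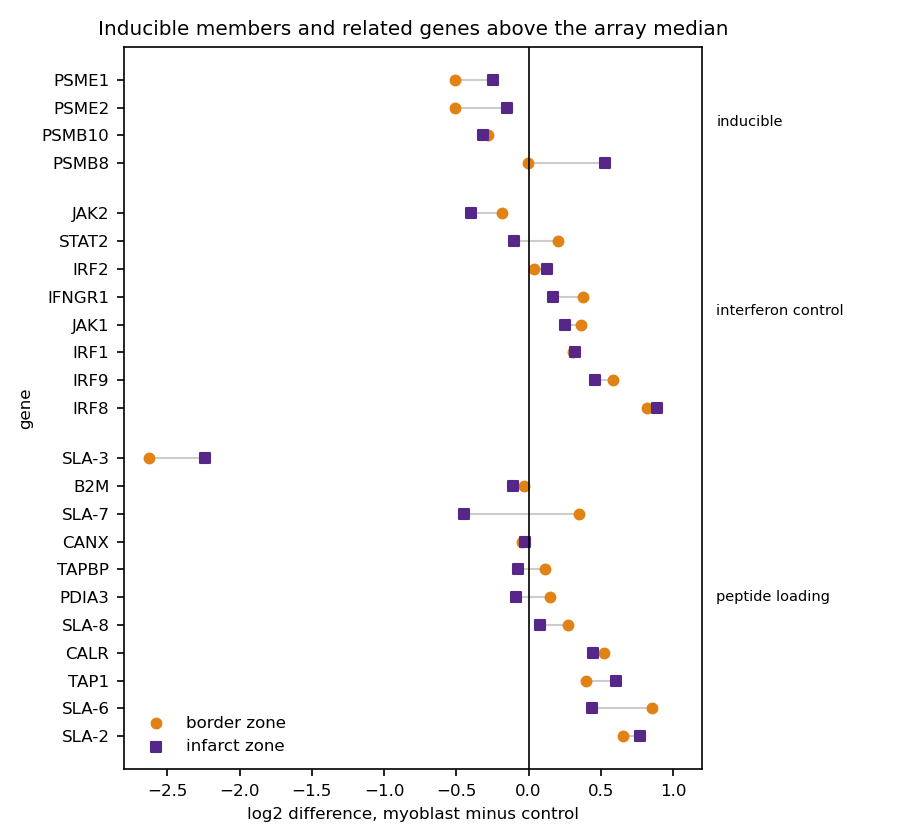
Log2 difference of myoblast minus control (x axis) in the border zone (circles) and infarct zone (squares) for the 4 inducible proteasome genes and the interferon control and peptide loading genes above the array median (y axis). PSMB10, PSME1 and PSME2 lie left of 0 in both zones, while IRF1, IRF8, IRF9 and the brightest TAP1 probe set lie right of it. Of the related genes, JAK2, SLA-3, B2M and CANX also lie left of 0 in both zones. STAT2, TAPBP, PDIA3 and SLA-7 have their symbols on different sides of 0.

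Other measures also differed with treatment, in either direction. The 15 cardiomyocyte markers measured were all above the array medians. Of these, 12 were lower with myoblasts in both zones and 1 was higher (29.7% and 30.7% of all probe sets). Their summed signal was 282579 and 306212 with myoblasts against 323749 and 368598 in controls, in the same order of arrays as the summed proteasome signal. Of 11 macrophage markers, 7 were higher in both zones and none was lower (30.7% and 29.7% of all probe sets), with sums of 8559 and 11363 against 6334 and 7518. T and NK cell markers were dim, with 11 of 13 below the array median on all 4 arrays and sums from 619 to 977. Some of them had signals of a few units, such as CD4 at 2.61 on the control border array. The 3'/5' signal ratio of EF1A, a sign of RNA integrity, was 3.01 and 2.49 with myoblasts against 4.17 and 4.13, while that of GAPDH overlapped between the groups (1.73 and 1.38 against 1.55 and 1.52) and that of actin was 24.6 and 19.5 against 24.9 and 36.8, and the 28S rRNA signal was 13.05 and 13.32 against 13.95 and 13.96 on the log2 scale. B and plasma cell markers (3 genes) had sums of 4701 and 6704 against 3794 and 3755. Most of this came from XBP1 (3453 and 2833 against 3013 and 3101) and JCHAIN (1245 and 3828 against 775 and 648). Endothelial markers (10 genes) had 8488 and 10342 against 8283 and 7874, and fibroblast markers (8 genes) 121047 and 85109 against 97527 and 100334. Skeletal muscle markers (9 genes, 7 of them below the array median on all arrays) had 9607 and 11483 against 11452 and 16385. Of these sums, DES alone gave 8920 and 10976 against 10679 and 15473, so that they mostly follow DES. They cannot be read as an amount of skeletal muscle or of grafted cells. The part of these measures in the proteasome values was not tested. In whole tissue, fewer cells of a type and less RNA per cell cannot be told apart.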

How the data were processed

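RNA of 4 heart tissues, 1 per condition, was hybridised by the authors to Affymetrix Porcine Genome Arrays. The authors scanned the arrays and processed them with MAS5, which subtracts background and scales each array, and the deposited log2 signals were used unchanged. The 2% trimmed mean signal was close to 500.1 on every array. The number of arrays limits the precision. Symbols came from the annotation of the platform, and 10099 probe sets carry 1 symbol, 198 several and 13826 none. All 42 member probe sets matched the pig reference by gene ID with the same symbol.

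Within each zone, the control log2 signal was subtracted from the myoblast one, and both zones were averaged. A gene was counted at 2-fold, the threshold of the methods, or at 1.5-fold, without a test for lack of replicates. limma 3.58.1 in R 4.3.3 with treatment and zone was an alternative, beside other normalizations, floors, filters and probe set rules. Counts and limma were tested on simulated data with equal noise for all probe sets and planted differences far wider than those of the members. This checked the code and tells nothing about differences as small as those of the members. Python 3.11.15, pandas 2.3.3 and numpy 2.4.6 were used. Values on all arrays were due for the inducible, catalytic and PSME genes, the 4 highest and 4 lowest members in the mean over zones, the extremes between zones, members whose probe sets differed in sign, and the extremes of each list with IFNG, IRF1, TAP1 and B2M. For some of these, such as PSMD1 and B2M, only ratios are printed. SOCS1 and other genes outside this rule were named after their values were seen. Members and lists were chosen with earlier results of these data known.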

Additional observations from a re-analysis of the deposited data

Results flagged for a closer look

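The log2 differences of a few genes between myoblast and control arrays had opposite signs in the border and infarct zones, each at least 0.1 in size. With 1 array per condition, this difference between zones was not tested. Among proteasome genes this held for PSME4 alone, at -0.20 (border zone) and 0.16 (infarct zone). Among the genes of the pathway lists, PSMF1, a proteasome inhibitor protein, had -0.14 and 0.36 on its brighter probe set, the signal transducer STAT2 had 0.21 and -0.10, and FBXO32 had -0.11 and 0.13. SOCS1 had -0.31 and 4.04, the latter against a control signal of 8.34 units, and the class I gene SLA-7, one of the near-identical copies, had 0.35 and -0.44. IFNG had -0.74 and 1.15 at signals of 5.24 to 14.9 units.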

How the results depend on the processing

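The counts of members at 2-fold were 0 in all 5 comparisons under each normalization, floor, filter and probe set rule. They were also 0 at 1.5-fold, which was tried on the chosen probe sets alone, and in limma, which was run for the mean over zones. The number of members lower in both zones was 21 to 26 (23 as reported), the highest with arrays centred on the median of the signal range, a setting added after seeing the data. All median differences kept their sign and moved by less than 0.1. The comparison of inducible with other members did not hold up in this way. With catalytic subunits alone it was 0.15 (border zone), 0.36 (infarct zone) and 0.26 (mean over zones) in place of -0.21, -0.08 and -0.17, and with means in place of medians 0.041 in the infarct zone. Without PSME1 and PSME2 it was 0.0401, 0.2222 and 0.1296, tried after seeing the data. Without PSMB8, also tried after seeing the data, it was -0.32 in the border zone. For infarct over border zone in controls it was -0.29, and -0.14 with catalytic subunits alone or -0.17 without PSMB8. After myoblasts it was -0.02, and 0.0521 with catalytic subunits alone, 0.0417 without PSMB8 and 0.0362 with quantile normalization. PSMB10 minus PSMB7 in the border zone was -0.0485 with quantile normalization in place of 0.01. In the mean over zones, PSMC2 was -0.60 on its second brightest probe set and -0.11 in the mean of its probe sets (0.20 as reported), PSMD1 was -0.25, -0.12 and, with arrays centred on their medians, -0.0222 (0.01 as reported), and PSMD11 was 0.26 on its second probe set (-0.16 as reported). The causes were not tested. With 1 array per condition, leaving out a replicate was not possible. No paired analysis was possible because the labels give no replicate or animal numbers, and zone was the only factor that could be matched.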
